A study of Mus musculus with 48 samples.

Results

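Homeobox genes are transcription factor genes whose protein carries the homeodomain, a compact fold that grips DNA. They were followed here as 97 genes read by 129 probe sets, of 12393 genes named by 1 symbol and 22626 probe sets on the array in all. A probe set is a group of short oligonucleotides on the array that reads 1 transcript. A probe set was taken where its single gene symbol in the platform annotation named a member of the Hox, Pax, Lhx, sine oculis (Six2 to Six6), Emx, Irx, Nkx, Dlx, Rhox, Pbx, Meis or Pou families. The rule uses names alone, so not all of the 97 genes are homeobox genes. Dlx1as, Dlx6os2 and Hoxa11os are noncoding, and Pou2af1 is a coactivator of Pou factors. Pax genes are named for another DNA-binding part, the paired domain. Pax1 and Pax9 lack a homeodomain, and Pax5 and Pax8 carry only part of it. No probe set carried an Emx symbol, and 3 matching probe sets with several symbols were left out.

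The series measured RNA of healthy mice on 48 Affymetrix arrays in 8 groups: male and female hypothalamus, male and female kidney, male and female liver, testis, and ovary. Each group had 3 RNA samples, each hybridised to 2 arrays whose values were averaged, so n = 3 per group and n = 6 per tissue with both sexes. All RNA was bought from Ambion as pools of 10 animals. The sample description calls the hypothalamus RNA total and the RNA of the 4 other tissues polyA-selected, while the molecule field reads total RNA for every array. Strain and age are not stated, no treatment is named, and whether a group's 3 samples are 3 pools is not said, so the p-values may reflect technical spread only.

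Hox genes are laid out in 4 clusters whose order along the chromosome matches the order in which they act along the embryo's axis, and their proteins bind DNA together with Pbx and Meis cofactors. Pax, Lhx, sine oculis, Irx, Nkx, Dlx and Pou factors pattern the brain, kidney and sense organs in the embryo, and the Rhox genes form an X-linked cluster used in reproductive tissues. In the adult, many of these genes stay on in the organs they helped to build.

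The promoters of 5 members whose levels the results below turn on are shown here, the 250 bases before the transcription start, from RefSeq on GRCm38.p6. Hoxd8 (chr2:74704365-74704614, plus strand) and Hoxd9 (chr2:74697513-74697762, plus strand) are neighbours in the Hoxd cluster and were both at high levels in kidney. Pax8 (chr2:24475600-24475849, minus strand) and Lhx1 (chr11:84525535-84525784, minus strand) were above all other tissues in kidney, and Rhox5 (chrX:37754358-37754607, plus strand) in testis. Capitals mark CCAAT read on either strand, and all sequences run 5′ to 3′ on the strand of the gene.
Hoxd8: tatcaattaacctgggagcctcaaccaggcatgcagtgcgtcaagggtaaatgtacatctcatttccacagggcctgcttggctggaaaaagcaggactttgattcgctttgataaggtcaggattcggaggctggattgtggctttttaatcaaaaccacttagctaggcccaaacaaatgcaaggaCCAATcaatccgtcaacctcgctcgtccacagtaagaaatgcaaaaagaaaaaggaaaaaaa
Hoxd9: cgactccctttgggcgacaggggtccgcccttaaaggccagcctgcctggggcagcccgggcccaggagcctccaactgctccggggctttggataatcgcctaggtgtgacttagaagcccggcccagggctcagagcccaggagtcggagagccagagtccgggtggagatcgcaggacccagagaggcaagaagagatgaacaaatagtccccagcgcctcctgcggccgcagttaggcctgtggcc
Pax8: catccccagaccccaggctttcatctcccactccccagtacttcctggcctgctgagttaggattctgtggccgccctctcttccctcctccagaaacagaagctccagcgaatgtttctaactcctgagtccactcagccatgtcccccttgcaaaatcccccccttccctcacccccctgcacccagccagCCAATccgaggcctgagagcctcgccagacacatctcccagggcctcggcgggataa
Lhx1: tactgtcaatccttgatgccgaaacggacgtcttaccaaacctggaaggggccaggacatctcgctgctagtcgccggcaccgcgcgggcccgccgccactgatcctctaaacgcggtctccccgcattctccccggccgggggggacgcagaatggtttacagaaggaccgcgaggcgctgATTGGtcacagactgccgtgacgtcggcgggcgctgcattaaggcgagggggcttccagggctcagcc
Rhox5: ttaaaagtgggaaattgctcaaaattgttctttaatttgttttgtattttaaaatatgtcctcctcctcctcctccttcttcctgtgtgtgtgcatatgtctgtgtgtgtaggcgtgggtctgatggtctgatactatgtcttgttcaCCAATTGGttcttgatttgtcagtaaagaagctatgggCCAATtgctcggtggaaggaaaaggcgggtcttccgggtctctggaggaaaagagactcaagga
CCAAT was found 1 time each in Hoxd8, Pax8 and Lhx1 and 3 times in Rhox5, where 2 of the matches overlap in CCAATTGG, and 0 times in Hoxd9. Over the 66 member genes with an entry in the promoter table, 36 of 75 promoters (48%) held it, against 33.8% of all 32851 promoters. GC content differed between these sets, with a median of 60.8% in the member promoters and 52.4% in all. The other motifs searched on both strands were TAATTA, a core read by many homeodomains, in 2.67% of member and 4.84% of all promoters, TGATNNAT, a joint site of Pbx and Hox proteins, in 6.67% and 7.68%, TGACGTNA in 2.67% and 2.52%, and TATAAA in 6.67% and 12.4%. None of these 4 was in the 5 windows shown. A match here describes letters and not a bound site.

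The tissue labels were checked against marker genes. The 3 neuron markers, the 6 kidney tubule markers, the 4 measured hepatocyte markers, the 4 spermatid markers and the 6 oocyte markers each had their highest mean in the labelled tissue. The hepatocyte marker Ttr was also at 8308.3 to 15065 in hypothalamus. Of 5 Sertoli markers 4 were highest in testis, and Amh was highest in ovary. Of 3 measured granulosa markers 2 were highest in ovary, and Amhr2 was highest in testis. Ovary RNA also carried Ovgp1, a secreted protein of the oviduct, at 10097, 7759.5 and 8229, against group means of 137 to 294 in the other groups. Sprr2f, a uterine epithelium gene, was at 1912, 1818 and 1790.1 in ovary. Of the other oviduct and uterus markers, Foxj1 of ciliated cells averaged 1152 in ovary and 875 in testis, and Pgr was not highest in ovary, with 63.0 there and 79.7 in female hypothalamus. Liver RNA carried all 4 exocrine pancreas markers, their summed intensity lying between 5053 and 24275 in male and between 9611.5 and 20225 in female liver, and between 420.7 and 4330.3 in the other samples. All 3 measured B lymphocyte markers were also highest in liver. Anterior pituitary markers were near the level of other tissues in hypothalamus, with a summed intensity of 413.4 to 701.8 there and 265.9 to 689.96 elsewhere. Values are intensity on a linear scale after each array was brought to a common trimmed mean. To be tested, a probe set had to exceed the 40th percentile of the RNA sample in 3 or more RNA samples compared.

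Most homeobox genes were dim. In kidney 28 of the 129 probe sets (21.7%) lay above the 40th percentile of every kidney sample, in testis 26, in ovary 23, in hypothalamus 21 and in liver 16, whereas 52.4% to 56.4% of all probe sets did so in these tissues. Across the tissues, 63 probe sets of 55 genes were tested among 18092. Tissues were compared with limma on log2 of intensity plus a pseudocount of 48.5, each against the mean of the other 4, with Benjamini-Hochberg adjustment over all tested probe sets and a threshold of 0.05. The 5 tissue comparisons share their samples. If hypothalamus RNA alone was total, as the sample description has it, RNA type cannot be told apart from tissue wherever hypothalamus is compared. A difference on this scale understates the ratio of dim genes, and in bulk RNA a lower share of a cell type cannot be told apart from less RNA per cell. A member that passed the filter through 1 tissue alone had to differ, so the counts describe and do not support.

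Kidney had 22 probe sets higher and 21 lower of 63, beside 26.8% higher and 43.7% lower of all tested probe sets, and the split was 23 and 14 with quantile normalization and 22 and 14 with median centring. Hypothalamus had 24 higher and 26 lower, beside 41.5% and 36.3% of all, and 16 higher and 37 lower with quantile normalization and 18 and 34 with median centring. Testis had 13 higher and 30 lower, beside 27.1% and 50.6% of all, and 19 and 22 with quantile normalization and 19 and 23 with median centring. Ovary had 26 higher and 17 lower, beside 36.6% and 23% of all, and 20 and 23 with either. Liver had 10 higher and 39 lower, beside 25.5% and 51.2% of all. The median of all probe sets itself moved by up to 0.29 (log2) between these scalings in hypothalamus and by 0.24 in ovary. Counting the comparison of testis with ovary as well, no called gene changed sign, and 29 calls of single genes were lost, among them those of Dlx4, Dlx5, Lhx4, Lhx6, Nkx1-2 and Nkx2-3 in hypothalamus.

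Of 32 Hox genes on the array 18 were tested, and 12 of these had their highest mean in kidney, 4 in ovary, 2 in testis and 0 in hypothalamus or liver. Each gene was read by its brightest tested probe set, which matters for Hoxa9, as given below. In 6 of the 12 kidney passed as above the next tissue (Hoxa5, Hoxa10, Hoxb2, Hoxb6, Hoxb9 and Hoxd10), and in the other 6 it did not (Hoxa3, Hoxa9, Hoxb3, Hoxb4, Hoxd8 and Hoxd9, limma adjusted p from 0.0548 to 0.968). In kidney 13 rose and 2 fell, with a median difference of 0.94 (log2), against a median of -0.15 over all probe sets. In ovary 11 rose and 2 fell, with a median of 0.54 against 0.11 over all. In hypothalamus 15 of 18 fell and 0 rose, with a median of -0.66 against 0.06, and in liver 15 fell and 1 rose, with a median of -0.67 against -0.26. Of all tested probe sets 26.8% rose and 43.7% fell in kidney, and 36.6% and 23% in ovary. The shares were 41.5% and 36.3% in hypothalamus and 25.5% and 51.2% in liver. The kidney counts were the same with quantile normalization and median centring, those of ovary had 10 and 9 higher, and those of hypothalamus had all 18 lower.

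**Figure D1:**
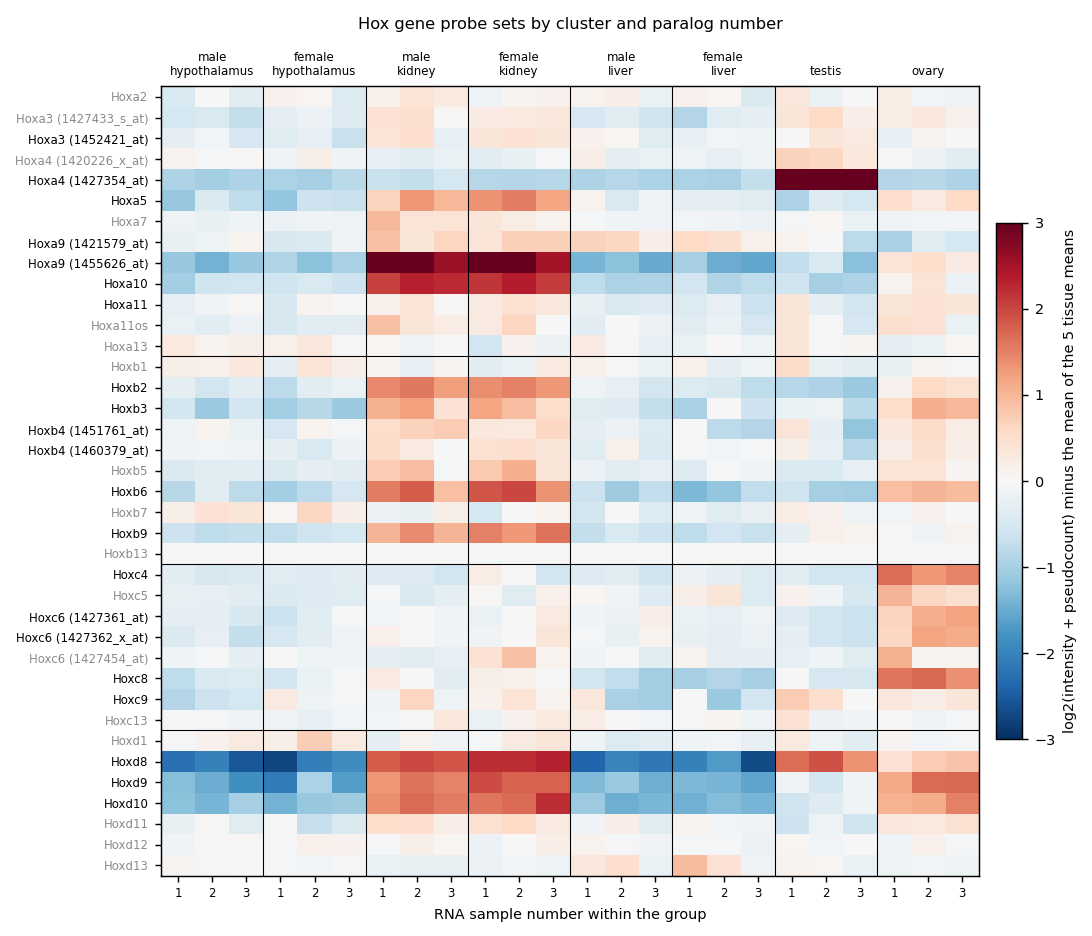
All 38 Hox probe sets (rows, by cluster and paralog number) in the 24 RNA samples (columns, 3 per group), as log2(intensity + pseudocount) minus the mean of the 5 tissue means, from blue (lower) to red (higher), with values past ±3 shown at the end of the scale. Names in black were tested and names in grey were not, and lines part the 4 clusters and the groups. Red lies mostly in the kidney and ovary columns, with Hoxa4 in testis and the Hoxc genes in ovary as separate blocks.

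Hoxd8, a gene of the middle of the Hoxd cluster, had 2064, 2322 and 2167 in male kidney and 2737, 2708 and 2935 in female kidney. Testis had 1869, 2206 and 1472 and ovary 765, 979.9 and 1031, against 51.3 to 137 in liver and 48.0 to 119 in hypothalamus. Kidney overlapped testis, and both lay far above liver and hypothalamus, where no sample reached the lowest ovary sample. Kidney and testis were neighbours in the order of levels and did not pass the test of their difference (limma adjusted p = 0.0548), while testis was above ovary (0.000601) and ovary above liver (1.6e-11). Its neighbour Hoxd9 averaged 1050.4 ± 172 in kidney (SD, n = 6) and 963 ± 214 in ovary (SD, n = 3), which did not pass as different (adjusted p = 0.589), and 245 ± 48.8 in testis. Hoxd10, the next gene of the cluster, had 432 ± 104 in kidney, 297 ± 63.4 in ovary, 67.1 ± 16.7 in testis, 15.9 ± 8.42 in hypothalamus and 9.41 ± 6.19 in liver. All 3 tested Hoxd genes thus rose in kidney and in ovary and fell in hypothalamus and liver, while in testis Hoxd8 rose, Hoxd10 fell and Hoxd9 did not pass. The shares of all tested probe sets that rose or fell in each tissue are those given above.

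By the brightest tested probe set of each gene, every kidney sample lay above every other sample in 2 of 6 tested Hoxa and 2 of 5 tested Hoxb genes. The same was so in 0 of 4 Hoxc and 0 of 3 Hoxd genes, a difference between clusters that was not tested. By its other probe set, given below, Hoxa9 also had every kidney sample above all others. Hoxa10, which patterns the reproductive tract and hind limb, had 560.0, 697 and 641 in male and 606, 703 and 580.3 in female kidney, against 81.7 to 143 in ovary and 24.7 to 58.4 in the remaining tissues. Every kidney sample lay above every other sample, and the difference was 2.75 ± 0.09 (log2, SE, adjusted p = 2.87e-17). Hoxb2, a hindbrain patterning gene in the embryo, had 943, 1048 and 826 in male and 912, 991 and 861 in female kidney, against 353 to 516 in ovary, 170.4 to 279 in hypothalamus, 168 to 281 in liver and 121 to 160.3 in testis. It too was above all others in kidney (1.77 ± 0.10, adjusted p = 2.15e-13), and every testis sample lay below every other sample (-1.20 ± 0.12, adjusted p = 9.95e-09), as held for 15.3% of all tested probe sets. Hoxb9, a thoracic patterning gene, had 148, 213 and 149 in male and 228, 188 and 251 in female kidney, and 7.97 to 59.1 elsewhere. Hoxa5, known for its part in lung formation, had 171, 286 and 222 in male and 297, 342 and 269 in female kidney, and 116 to 158 in ovary, the next highest tissue. Both passed in kidney, by 1.65 ± 0.08 and 1.47 ± 0.12 (log2, SE, adjusted p = 5.48e-14 and 2.01e-10). These 4 Hox genes were among the 7 member genes called higher with every kidney sample above all others by their brightest tested probe set. That pattern was held by 4.8% of all tested probe sets.

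Hoxb6 and Hoxb3 were shared by kidney and ovary. Hoxb6 averaged 537 ± 153 in kidney and 322 ± 10.2 in ovary, and 53.5 to 70.9 on average in the other tissues. Hoxb3 averaged 197 ± 54.3 in kidney and 191 ± 46.9 in ovary, which did not pass as different (adjusted p = 0.968). Hoxa9 could not be read as 1 gene, since its probe sets disagreed. The brighter averaged 737 ± 106 in kidney, 665 ± 98.2 in liver and 290.3 ± 66.0 in ovary, while the other averaged 1220.4 ± 263, 15.6 ± 11.4 and 163 ± 19.6 there. The single Hox call higher in liver comes from the brighter one (0.57 ± 0.13), and the other was called lower in liver (-1.71 ± 0.12) and higher in kidney by 3.68 ± 0.12. Both probe sets rose in kidney. By the other one every kidney sample lay above every other sample, with 9.834 to 10.618 on the log2 scale against at most 7.856.

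In 3 of the 4 tested Hoxc genes ovary was highest. Hoxc8, a gene of the thoracic region in the embryo, had 365, 388 and 297 in ovary, against 56.2 to 114 in kidney and 16.4 to 86.6 in the remaining tissues. Hoxc4 had 225, 162 and 190.2 in ovary, against 7.59 to 52.7 elsewhere, and Hoxc6 had 557, 842 and 795, against 188 to 454. By the probe set that stood for each of the 3 genes the ovary samples lay above every other sample, with differences of 1.96 ± 0.14, 1.87 ± 0.12 and 1.22 ± 0.13 (log2, SE, adjusted p = 4.55e-11, 9.24e-12 and 2.9e-08). The other tested probe set of Hoxc6 gave 702 ± 139.9 in ovary and 324 ± 43.7 in kidney, the next highest. Its untested probe set, dimmer than both, overlapped, with 94.7, 24.6 and 27.7 in ovary and 43.1, 75.4 and 25.9 in female kidney. Among all tested probe sets, 8.45% were called higher with every ovary sample above. The fourth tested gene, Hoxc9, averaged 174 ± 62.5 in testis and 149 ± 13.5 in ovary, which did not pass as different (adjusted p = 0.745). The oviduct and uterus markers given above were in the same 3 ovary RNA samples, and their part in the ovary levels was not tested.

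Hoxa4, which in mouse is known from male germ cells as well as from the embryo, was highest in testis. It had 947, 1184 and 1319 in testis, against 5.52 to 27.6 over the 21 samples of the other tissues. The difference of 4.31 ± 0.09 (log2, SE, adjusted p = 4.13e-21) was the largest of any member in any tissue comparison. Its other probe set, too dim to be tested, averaged 48.8 in testis and 8.77 to 18.5 in the other tissues. The neighbouring genes of its cluster did not share the pattern: Hoxa5 averaged 41.6 ± 16.8 in testis and fell there, and Hoxa3 averaged 119.9 ± 22.5 and did not pass. Over the 18 Hox genes, 3 rose in testis (Hoxa4, Hoxd8 and Hoxc9) and 9 fell, beside 27.1% higher and 50.6% lower of all tested probe sets, with 4 and 6 under either other scaling.

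The Pbx and Meis cofactors of Hox proteins differed in the tissue where they were highest. Meis1 had 269.7, 192 and 291 in ovary, against 3.11 to 29.2 in all other samples, with a difference of 2.37 ± 0.10 (log2, SE, adjusted p = 1.38e-14). Like Hoxc4 and Hoxc8, it passed the filter through ovary alone, so these p-values describe and do not support. Meis2 had 379.7, 545 and 638 in male and 480.1, 511 and 454 in female hypothalamus, just above the 321 to 379 of ovary and well above the 36.2 to 90.6 of testis. It rose in hypothalamus (1.44 ± 0.10, adjusted p = 1.7e-11) and fell in testis, below all other samples (-1.57 ± 0.14, adjusted p = 4.27e-10). Its hypothalamus samples cleared those of ovary only as intensity averaged over the arrays, and on the log2 scale of the test ovary 1 lay above male hypothalamus 1. Meis3 had 253, 235 and 277 in male and 228, 289 and 358 in female hypothalamus, against 50.9 to 146 elsewhere (1.11 ± 0.10, adjusted p = 5.11e-10). Pbx4, which in mouse is known from meiotic germ cells, had 442, 605 and 558 in testis, against 5.52 to 62.7 elsewhere. Its difference was 3.06 ± 0.11 (adjusted p = 5.68e-17), and its other probe set averaged 246 in testis and 3.43 to 19.5 in the other tissues. The broadly expressed Pbx2 and Pbx3 spread less by their brightest tested probe sets. Pbx2 averaged 690.0 ± 105 in ovary, 643 ± 71.2 in hypothalamus, 418 ± 66.4 in kidney, 395 ± 34.5 in liver and 284 ± 67.9 in testis. Its other tested probe sets fell further in testis. On the log2 scale they had 6.676 to 7.033 and 6.317 to 6.86 there, against 8.595 to 8.75 and 8.029 to 8.401 in hypothalamus. Pbx3 averaged 586 ± 54.8 in hypothalamus and 590.3 ± 80.3 in ovary, and 209.8 ± 14.7 in liver, where every sample lay below those of all other tissues (-1.05 ± 0.09, adjusted p = 1.78e-10).

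**Figure D2:**
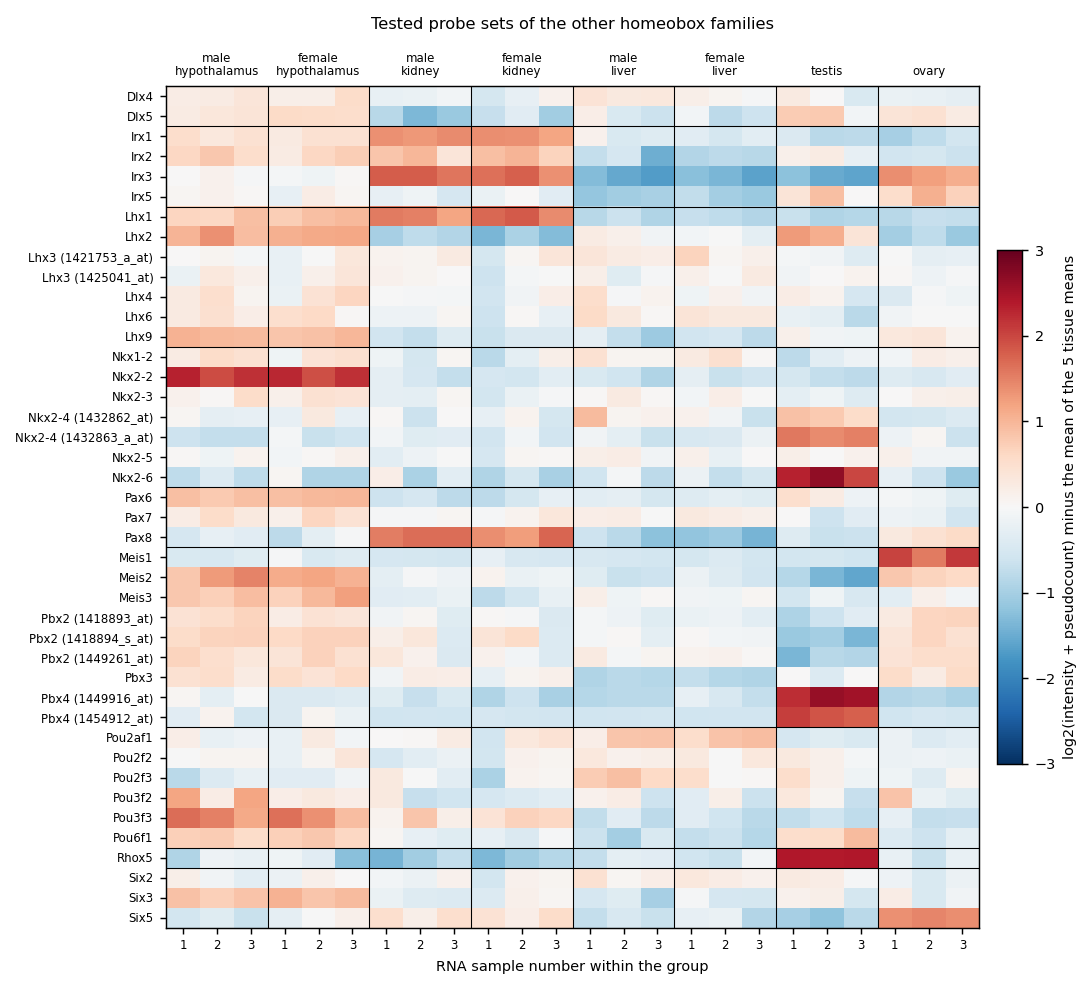
The 42 tested probe sets of the families other than Hox (rows, by family) in the 24 RNA samples (columns, 3 per group), on the same scale as the Hox plot: log2(intensity + pseudocount) minus the mean of the 5 tissue means. Nkx2-2 and Pou3f3 are red in hypothalamus, Irx1, Irx3, Lhx1 and Pax8 in kidney, Nkx2-6, Pbx4 and Rhox5 in testis, and Meis1 and Six5 in ovary.

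Of the tested Pax and Lhx genes, Pax8 and Lhx1 were the ones called higher in kidney. Pax8, needed for kidney and thyroid formation, had 849, 938 and 939 in male and 760.1, 690.3 and 991 in female kidney, against 329.6 to 411 in ovary and 67.8 to 259 in the remaining tissues. Every kidney sample was above all others (1.94 ± 0.10, adjusted p = 2.01e-13), and ovary in turn was above hypothalamus (adjusted p = 9.73e-05). Lhx1, a LIM homeobox gene of the embryonic kidney and brain, had 235, 225 and 169.8 in male and 269, 297 and 206 in female kidney and 103 to 143 in hypothalamus, and no sample of liver, testis or ovary was above 13.2. It rose in kidney by 1.93 ± 0.08 (adjusted p = 1.78e-15) and in hypothalamus by 0.99 ± 0.08. A second, untested probe set of Lhx1 gave another order, with 145 ± 48.9 in testis and 49.2 ± 23.4 in kidney, so the gene rests on 1 of its probe sets.

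The Iroquois genes Irx1, Irx2 and Irx3, which pattern the nephron and nervous system, rose in kidney, 3 of the 4 tested in that family, beside 26.8% of all tested probe sets. Irx1 had 628, 599 and 649 in male and 642, 626 and 542 in female kidney, above the 271 to 332 of hypothalamus and all other samples (1.67 ± 0.09, adjusted p = 1.31e-13). Irx3 averaged 1044 ± 127 in kidney and 752 ± 86.7 in ovary, 289 ± 21.7 in hypothalamus, 78.6 ± 15.6 in liver and 78.4 ± 16.3 in testis. Kidney passed as above ovary (adjusted p = 0.00393) and ovary as above hypothalamus (8.83e-09), while testis and liver did not pass as different (0.88). Irx5 had another order, led by ovary at 401 ± 90.8 and testis at 315 ± 113, with liver lowest at 82.7 ± 14.3. In liver all 4 tested Irx genes fell, beside 51.2% of all tested probe sets.

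In hypothalamus the member genes called higher with every sample above in intensity were, besides Meis2 and Meis3, Nkx2-2, Pou3f3, Lhx9, Pax6 and Six3. Nkx2-2, which patterns the ventral neural tube and marks the oligodendrocyte lineage, had 486, 376 and 449 in male and 475, 368 and 450.4 in female hypothalamus, against 9.45 to 44.7 elsewhere. Pou3f3, a Pou factor of brain and kidney, had 248, 220.1 and 158 in male and 246, 191 and 129 in female hypothalamus, 53.4 to 116 in kidney and 3.87 to 29.8 in the remaining tissues. Both were above all other samples, by 2.68 ± 0.09 and 1.73 ± 0.12 (log2, SE, adjusted p = 1.03e-17 and 1.45e-11), and Pou3f3 also rose in kidney (0.59 ± 0.12). Lhx9, a gene of diencephalon and early gonad, had 239, 226 and 222 in male and 197, 205 and 228 in female hypothalamus, against 102 to 131 in ovary and 79.7 to 107 in testis, the next tissues. Pax6, the eye and forebrain regulator, had 182, 166 and 182 in male and 181, 192 and 199 in female hypothalamus, against 23.3 to 127 elsewhere. Six3, which specifies the anterior forebrain, had 276, 239 and 266 in male and 311, 261 and 291 in female hypothalamus, against 39.1 to 155 elsewhere. All 3 passed and were above all other samples, with differences of 1.18 ± 0.09, 1.14 ± 0.09 and 1.10 ± 0.12 (adjusted p = 8.43e-11, 8.12e-11 and 2.68e-08).

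Of these hypothalamic levels, those of Pou3f3, Lhx9 and Pax6 were close to the brightness at which a probe set could be tested. Those of Nkx2-2 and Meis2 lay well above it. The 40th percentile lay between 161.9 and 183 in the hypothalamus samples and between 109.4 and 160.4 in the others, so dim probe sets as a whole read brighter there, and the part of this in the hypothalamus levels was not tested. Nor can the RNA type named in the description be told apart from tissue in these levels. Of 4 untested probe sets of Pax6, 1 averaged 56.2 ± 13.0 in hypothalamus and 5.83 to 7.71 in the other tissues, and another had 123 ± 9.03 there and 98.6 to 114 elsewhere. The latter overlapped, with 7.299 to 7.463 in hypothalamus on the log2 scale, against 7.547 in male liver 1 and 7.472 in testis 1. In the remaining ones hypothalamus overlapped liver too. On the log2 scale of the test they had 6.881 to 7.275 in hypothalamus against 6.943 to 7.246 in liver, and 5.726 to 5.933 against 5.732 to 6.05. The 2 untested probe sets of Six3 did not have their highest mean in hypothalamus. Oligodendrocyte markers, the lineage in which Nkx2-2 acts, had a summed intensity of 15864 to 18000 in hypothalamus and 260.6 to 616.04 elsewhere, and 3 of 4 measured markers of cortex, striatum and thalamus were highest there; the part of either in these levels was not tested. Called higher with every hypothalamus sample above in intensity were 7 member genes, Meis2 among them, beside 17.8% of all tested probe sets. Lhx2, a forebrain gene of the LIM group, averaged 259 ± 32.4 in hypothalamus and 227 ± 81.6 in testis, which did not pass as different (adjusted p = 0.26). Pou6f1 averaged 1056 ± 71.1 in hypothalamus and 1048 ± 190.5 in testis (adjusted p = 0.913), and 367 to 543 on average in the other tissues.

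**Figure D3:**
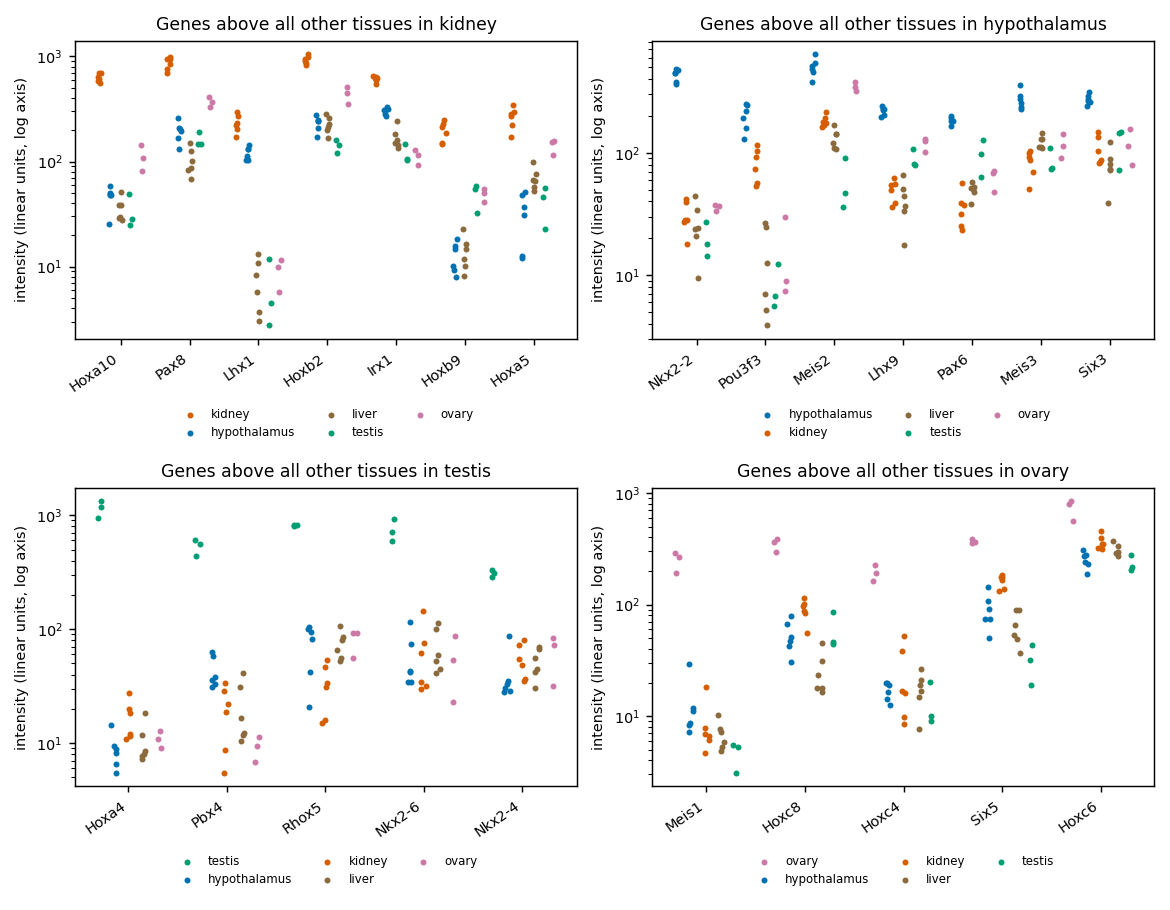
Intensity (linear units on a log axis) of the genes that were called higher in a tissue with all of its samples above all others, 1 panel per tissue (kidney, hypothalamus, testis, ovary) and 1 point per RNA sample, coloured by tissue. The points of the panel's own tissue, drawn first at each gene, clear all others in intensity, by far in Hoxa4 and Pbx4 and narrowly in Hoxa5 and in Meis2, where ovary 1 passes male hypothalamus 1 on the log2 scale of the test.

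Testis had 5 member genes above every other sample, beside 14.8% of all tested probe sets. Besides Hoxa4 and Pbx4 these were Rhox5, Nkx2-6 and Nkx2-4. Rhox5, an androgen-controlled gene of Sertoli cells, had 821, 802 and 818 in testis, against 14.9 to 107 elsewhere (2.99 ± 0.19, adjusted p = 2.86e-12). Nkx2-6, known from the embryonic heart and pharynx, had 715, 923 and 599 in testis, against 23.0 to 144 elsewhere (2.90 ± 0.22, adjusted p = 4.78e-11). Nkx2-4 had 332, 288 and 309.7 in testis, against 28.1 to 87.5 elsewhere (1.88 ± 0.15, adjusted p = 7.19e-11), and its other probe set averaged 145 ± 28.9 in testis and 77.7 ± 51.4 in liver. The 3 testis values of Rhox5 lay within a narrow band, and those of Nkx2-6 did not. By these probe sets none of the 3 genes overlapped another tissue, while by its other tested probe set Nkx2-4 did overlap, with 165, 158 and 112 in testis, against 175 in male liver 1. Of 4 measured epididymis markers 3 had their highest mean in testis, and the list had a summed intensity of 184.1 to 462.7 there and 125.2 to 308.1 elsewhere. The highest sum was that of testis 2, where Lcn5 was at 199.8, and the part of these markers in the testis levels was not tested.

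Ovary had 5 member genes above every other sample: Meis1, Hoxc8, Hoxc4, Hoxc6 and Six5. The part of the oviduct and uterus tissue marked in these samples was not tested for any of them. Six5, a sine oculis family factor whose human gene lies beside the repeat of myotonic dystrophy, had 361, 387 and 367 in ovary, against 131 to 183 in kidney, 50.4 to 144 in hypothalamus, 36.8 to 90.1 in liver and 19.1 to 43.4 in testis. Its difference in ovary was 1.77 ± 0.13 (adjusted p = 1.05e-10). Kidney was next and above hypothalamus (adjusted p = 2.68e-05), and testis was lowest.

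Liver had 0 member genes above every other sample, beside 6.2% of all tested probe sets. The genes called higher there were Hoxa9 by 1 probe set, Dlx4, Lhx6, Nkx1-2, Pax7, Six2, Pou2f2, Pou2f3 and Pou2af1. Pou2af1, the B lymphocyte coactivator that is no homeobox gene, had 108, 193 and 202 in male and 150.2, 201 and 212 in female liver, against 43.0 to 136 in kidney and 56.3 to 73.3 in ovary. It moved with the B lymphocyte markers, whose summed intensity was 696.4 to 955.8 in male and 610.8 to 865.3 in female liver and 228.2 to 503.1 in the other samples, and their part in the level was not tested. Six2, a gene of nephron progenitors, averaged 235 ± 28.9 in liver and 155 ± 21.5 in ovary, the lowest tissue, and no neighbours in its order of tissues passed as different. Dlx4 averaged 208 ± 26.7 in hypothalamus and 195 ± 29.6 in liver (adjusted p = 0.543). Nkx2-3, known from spleen and gut vessels, averaged 283 ± 48.4 in hypothalamus and 176 ± 20.8 in testis, the ends of its order, and Lhx6, an interneuron gene, 180.3 ± 32.8 in hypothalamus and 174 ± 26.8 in liver. These 4 are the tested genes of their families with the highest mean over the 24 RNA samples. Pou2f3 averaged 269.5 ± 85.5 in liver and 204 ± 57.3 in testis, which did not pass as different (adjusted p = 0.24). Below every other sample in liver were Irx5, at 70.2 to 109.9, and Pbx3, beside 5.39% of all tested probe sets. Without male liver 1 the count of higher members was 5 in place of 10, and without female liver 1 it was 6.

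The comparison of testis with ovary asks how the RNA labelled as the gonads of the sexes differs. The ovary samples also carried the oviduct and uterus markers given above, and the part of such tissue in these differences was not tested. Here 38 member probe sets were tested in a fit of the 6 gonad samples, and 12 were higher and 18 lower in testis, beside 24.9% and 45.6% of 14957 probe sets. The split was 16 and 15 with quantile normalization and 16 and 16 with median centring, and these scalings moved the median of all genes by 0.23 and 0.40 (log2). The median over members was -0.35, against -0.34 over all.

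Higher in testis with no overlap were Hoxa4 (4.32 ± 0.17, log2 and SE), Pbx4 (3.33 ± 0.16), Nkx2-6 (2.98 ± 0.25), Rhox5 (2.77 ± 0.17), Lhx2 (1.88 ± 0.23) and Nkx2-4 (1.76 ± 0.20), with limma adjusted p from 5.42e-08 to 6.97e-05. In ovary, Hoxa4 had 10.8, 12.9 and 9.12, Pbx4 9.52, 11.3 and 6.87 and Rhox5 91.8, 56.0 and 92.9. Lhx2 had 293, 252 and 136 in testis, against 21.4, 36.9 and 17.4 in ovary. Lower in testis with no overlap were Irx3 at 97.0, 71.8 and 66.3 in testis, against 842, 744 and 669.7 in ovary, Meis1 at 5.27, 5.52 and 3.11, against 269.7, 192 and 291, and Six5 at 31.6, 19.1 and 43.4, against 361, 387 and 367. Their differences were -2.67 ± 0.17, -2.46 ± 0.18 and -2.42 ± 0.16. Hoxc4 (-1.96 ± 0.17), Meis2 (-1.95 ± 0.20) and Hoxc8 (-1.89 ± 0.19) were also lower in testis with no overlap, and the adjusted p of these 6 genes lay between 8.71e-07 and 1.98e-05. Of 12 tested Hox genes 2 were higher in testis (Hoxa4 and Hoxd8) and 7 lower, and of 5 Pbx and Meis genes 1 was higher and 4 lower. The 24.5% and 44.9% of all probe sets that were called with no overlap, higher and lower in testis, are the setting for these names. A gene that passed the filter through 1 gonad alone had to differ, so its adjusted p describes and does not support. Among others, this held for Hoxa4, Pbx4 and Rhox5 through testis and for Irx3, Meis1 and Six5 through ovary.

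**Figure D4:**
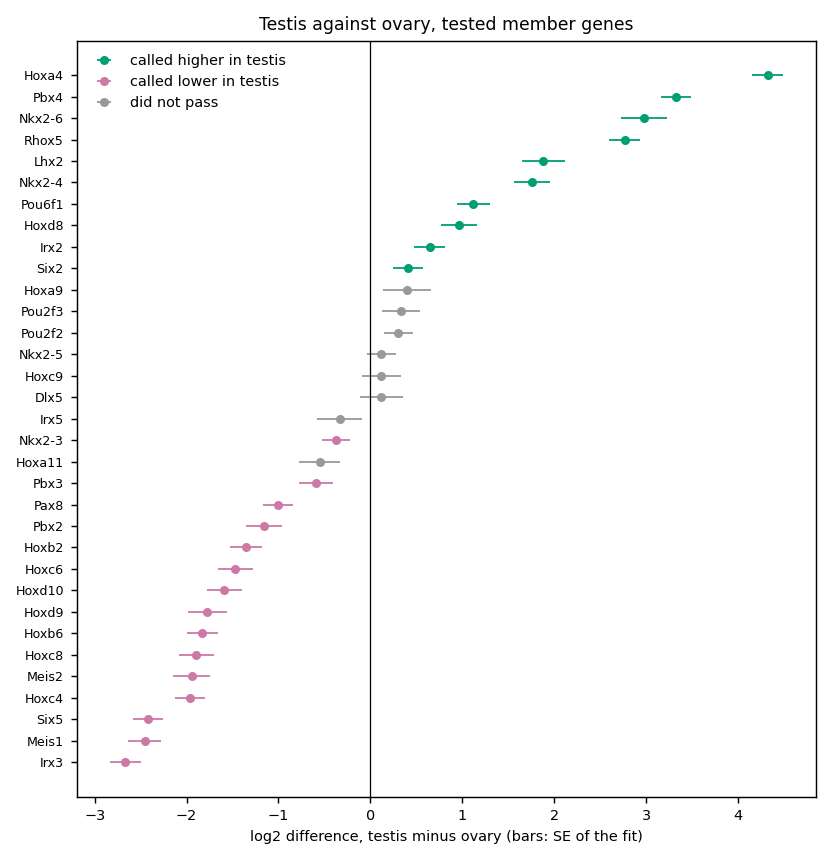
The log2 difference, testis minus ovary, of the tested member genes (1 probe set per gene, bars are the SE of the fit), green where called higher in testis, pink where called lower and grey where the test was not passed. Hoxa4, Pbx4, Nkx2-6 and Rhox5 lie furthest to the right, and Irx3, Meis1 and Six5 furthest to the left.

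Male and female RNA of the same organ asks whether these regulators differ by sex, the subject in the title of the series. None of the member probe sets passed in liver (0 of 26 tested), kidney (0 of 37) or hypothalamus (0 of 28) with limma, and at an unadjusted p under 0.05 there were 1, 2 and 1. Over all tested probe sets 7 were called in liver (0.0506%), 32 in kidney (0.231%) and 7 in hypothalamus (0.0508%). The same fit with the sexes' shared replicate number as a block also called 0 members in each organ.

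In liver, Pou2f3, a Pou factor of epithelial cells, had 335, 384 and 281 in males, against 272, 169.9 and 175 in females, a difference of 0.56 ± 0.18 (log2, SE, unadjusted p = 0.0143, limma adjusted p = 1). Dlx4 had 238, 206 and 212 in male liver, against 186, 173 and 156 in female liver (0.27 ± 0.12, limma adjusted p = 1). In kidney, Hoxd8 had 2064, 2322 and 2167 in males, against 2737, 2708 and 2935 in females, and its difference of -0.35 ± 0.13 did not pass (limma adjusted p = 0.904). Its neighbour Hoxd9 had 813, 1018 and 917 in males, against 1299, 1135 and 1119.6 in females (-0.36 ± 0.15, limma adjusted p = 0.965). In each of these 4 pairs the 3 values of one sex lay above the 3 of the other, without passing the test over all probe sets. The genes were picked for the lowest unadjusted p in each organ, so this separation is no support for a sex difference. The share of all probe sets with such a separation is not given here. In hypothalamus, Dlx5 had 144, 157 and 163 in males, against 193, 192 and 188 in females (-0.23 ± 0.09, limma adjusted p = 1). Its values did not overlap either, and it was picked by the same rule. The brighter probe set of Hoxa9 differed by 0.25 ± 0.13 (limma adjusted p = 1). The Hoxa9 difference took the other sign when the first array of each sample was used alone. Each sex difference was also compared between organs by an interaction term, and 0 of 52 member probe sets passed in kidney against liver, kidney against hypothalamus or liver against hypothalamus, with 1, 0 and 1 at an unadjusted p under 0.05 and 0.237%, 0.207% and 0.0178% of all probe sets called by limma.

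**Figure D5:**
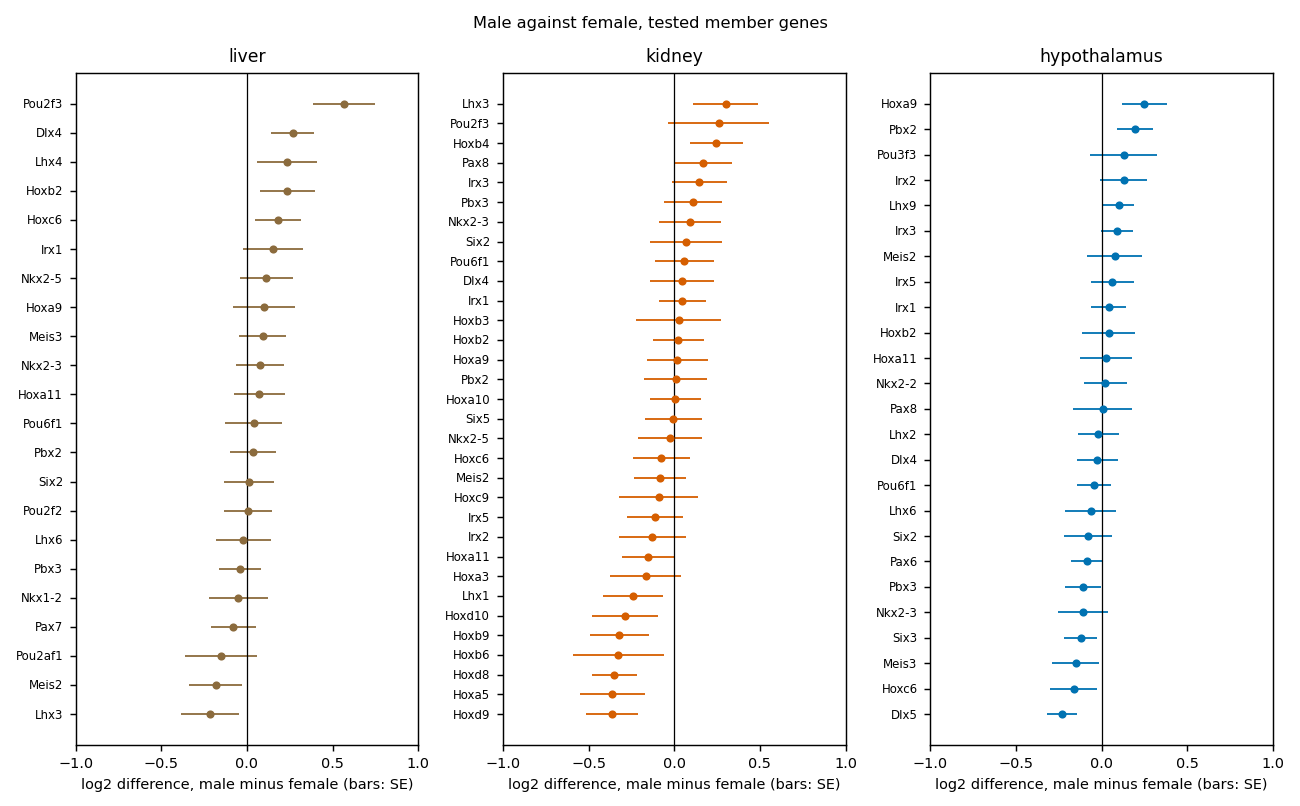
The log2 difference, male minus female, of the tested member genes in liver, kidney and hypothalamus (1 probe set per gene, bars are the SE of the fit). The points scatter on both sides of 0 in each organ, with Pou2f3 furthest out in liver and Hoxd9 in kidney, and none passed after adjustment.

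The other 42 genes were too dim to be tested in the joint comparison of tissues. They were 14 Hox genes, 6 Dlx, 5 Nkx, 5 Pax, 4 Pou, 2 Irx, 2 Lhx, 2 Rhox and 2 sine oculis genes, and no value of theirs in any RNA sample was above 201. For 6 of them the tissue means are given. Pou3f1 averaged 148 ± 28.0 in hypothalamus and 9.22 to 23.2 in the other tissues. Dlx1, a forebrain interneuron gene, averaged 85.9 ± 44.6 in hypothalamus and 4.60 to 6.91 elsewhere. Nkx2-1, which specifies the ventral hypothalamus in the embryo, averaged 89.7 ± 21.1 in hypothalamus and 19.3 to 48.2 elsewhere. Lhx8, a gene of forebrain neurons and oocytes, averaged 102 ± 20.6 in hypothalamus and 51.3 ± 15.4 in ovary, and 3.10 to 12.1 in kidney, liver and testis. Hoxc5 averaged 82.4 ± 26.5 in ovary and 14.4 to 30.7 elsewhere, the same leading tissue as the tested Hoxc4, Hoxc6 and Hoxc8. Hoxb5 averaged 76.6 ± 31.7 in kidney and 47.8 ± 13.2 in ovary, and 10.7 to 18.5 in the other tissues. In Nkx2-1, Lhx8 and Hoxb5 samples of the leading tissue overlapped those of another. These genes were picked after their values were seen, and none was tested.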

How the data were processed

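The authors deposited a linear intensity for each probe set on each of 48 arrays. How it was summarised, and with which software, is not given in the sources used here. Before scaling, the 2% trimmed mean of an array was 500.11 to 500.23, and each array was then brought to 500. The table had 22690 rows, of which 64 controls were left out, and 0 columns outside the named arrays. Arrays were mapped to 8 groups by their titles. The 2 arrays of an RNA sample correlated at 0.9656 to 0.99, with 0 identical pairs, and precision is limited by how many arrays there are.

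From these values log2(intensity + 48.5) was computed (the added constant is the 20th percentile over all arrays), and each RNA sample was taken as the mean of its arrays. Groups were compared with limma 3.58.1 (lmFit and eBayes) in R 4.3.3, tissues in 1 fit of 24 RNA samples, sexes and gonads in fits of 6 and interactions in a fit of 18, each on the probe sets above the 40th percentile of the RNA sample (the mean of its arrays, not each array) in at least 3 RNA samples. The scripts were tested on simulated data. Detection calls were not used. Of 22626 probe sets, 20380 had 1 symbol in the platform annotation, 691 several and 1555 none. Entrez IDs linked 20351 to RefSeq genes on GRCm38.p6. The files name no genome build, so only promoter coordinates are given. Python 3.11.15 with matplotlib 3.10.9 drew the figures.

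The members, the gene lists and the rule for naming genes were chosen with earlier results of these data known. The brightest tested probe set stood for a gene. Named with all values were up to 8 genes per tissue called higher and above all other samples, up to 6 per direction between the gonads, and the 2 with the lowest unadjusted p per sex comparison, plus the brightest of each family. Male and female samples of the same number deviated together from their group means, with correlations in liver of 0.535, 0.139 and 0.482, in kidney of 0.591, 0.424 and 0.627 and in hypothalamus of 0.392, 0.101 and 0.328. The highest correlation of other pairs was 0.286 in liver, above that of number 2, -0.116 in kidney and 0.0906 in hypothalamus. The numbers were taken to pair the sexes there, less surely in liver and hypothalamus. The main sex fits left the pairing out, and the replicate block took it in. The alternatives were other pseudocounts, filters, scalings, arrays and variance models, the replicate block, a random block of tissue and number, no hypothalamus, a joint fit, and leaving out each RNA sample.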

Additional observations from a re-analysis of the deposited data

How the results depend on the processing

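All 36 results named for a tissue or for testis against ovary kept direction and call in each of 1038 recomputations in which their probe set was still tested. A setting in which the probe set no longer passed the filter was not counted, so Hoxc4 in ovary had 33 settings and Hoxa4 in testis 36. These results were picked as called with no overlap, so that they kept their calls adds little support. Of 99 recomputations of the 6 named sex differences 1 turned, that of Hoxa9 in hypothalamus, which was -0.054 (log2, male minus female) with first arrays only. The cause was not tested. The counts moved by over 1.5 times mainly with the filter, which sets how many members are tested. With no filter, and so all 129 probe sets, hypothalamus had 88 members called (54 higher), kidney 67 (40 lower), liver 16 higher, testis 22 higher, and testis against ovary 46 (19 higher). With the filter at the 60th percentile the calls were 25 in hypothalamus (8 higher, 17 lower), 21 in kidney (13 and 8), 25 in liver (2 and 23), 23 in testis (8 and 15), 25 in ovary (16 and 9) and 15 in testis against ovary (7 and 8). Without hypothalamus, kidney had 12 members lower, and with technical replicate arrays only liver had 6 higher, and the cause of either was not tested. Leaving out 1 RNA sample gave 48 to 52 calls in hypothalamus, 39 to 46 in kidney, 44 to 50 in liver, 38 to 45 in testis, 36 to 44 in ovary and 27 to 33 in testis against ovary, and 5 to 10 higher in liver, the 5 without male liver 1 and 6 without female liver 1. Every sex and interaction setting that was run called 0 members. With the replicate block the sexes and interactions kept 0 calls, and no other call that the text rests on was changed by it. In testis against ovary same-numbered samples correlated at 0.0422, 0.146 and 0.0425, and across tissues at a median of 0.0621, so the numbers do not pair them. Dim members are limited by signal over background, which has no bound here without detection calls.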

Other observations

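Homeobox genes outside the families above, from a list of 63 of which 51 were on the array and 27 tested, had 14 members higher and 3 lower in hypothalamus, beside 41.5% and 36.3% of all tested probe sets, with a median of 0.36 (log2) against 0.06 over all probe sets. Isl1, a LIM homeobox gene of hypothalamic neurons, had 292, 276 and 281 in male and 340.0, 269 and 307 in female hypothalamus, against 5.98 to 29.8 elsewhere (2.54 ± 0.07, SE, limma adjusted p = 1.51e-19). Hhex, which is needed for liver formation, had 1595, 1442 and 1479.7 in male and 1626, 1590.1 and 1255 in female liver, against 121 to 307 elsewhere (2.61 ± 0.09, limma adjusted p = 3.56e-17). Every liver sample of Hhex lay above every other sample, a pattern no member of the named families had in liver. Cux1 rose in kidney to 1214 ± 217 (SD, n = 6) and Tgif1 in ovary to 779.8 ± 126 (SD, n = 3), each above all other samples.

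Of 18 partner genes of homeobox proteins 17 were on the array and 15 tested, 10 higher and 1 lower in hypothalamus, beside the same 41.5% and 36.3%, and 2 higher and 9 lower of 13 in testis against ovary, beside 24.9% and 45.6%. Their medians were 0.49 (log2) against 0.06 over all probe sets in hypothalamus, and -0.88 against -0.34 between the gonads. Sox2, a partner of Pou factors in neural progenitors, had 790.1, 623 and 739.8 in male and 789.6, 719 and 614 in female hypothalamus, against 1.30 to 22.3 elsewhere (3.71 ± 0.08, limma adjusted p = 3.82e-21). The Eya proteins, which bind sine oculis factors, parted between the gonads. Eya4 had 941, 976 and 617 in testis, against 59.9, 52.2 and 53.7 in ovary (3.08 ± 0.19, limma adjusted p = 8.67e-07). Eya2 had 29.9, 13.3 and 8.98 in testis, against 256, 283 and 281 in ovary (-2.31 ± 0.16, limma adjusted p = 1.86e-06). Ldb1, the bridging partner of LIM homeodomain proteins, had 23.5, 81.2 and 78.4 in testis, against 590.0, 629 and 675 in ovary (-2.68 ± 0.23, limma adjusted p = 6.32e-06). Between the sexes of liver, kidney and hypothalamus, 0 genes of either list passed with limma.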
